A study of Rattus norvegicus with 6 samples.

Results

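Of the 1756 genes in the differential expression table of this study, 39 belong to the ubiquitin and proteasome system by their gene name. They were taken as every gene whose name begins with Ube2, Ube3, Usp, Trim and a digit, Fbx, Rnf, Cul and a digit, Psm and a letter, Klhl, Kbtbd, Asb and a digit, Uba and a digit, Herc, Otud or March. By role they include 2 conjugating enzymes, 25 ligases and ligase adaptors, 7 deubiquitinases and 3 proteasome genes, and all 39 are annotated as protein coding. No Ube3, Cul, Herc or March gene was in the table. Neonatal rat ventricular cardiomyocytes (NRVCs), the heart muscle cells of Harlan Sprague–Dawley rats 2 to 3 days old, were treated for 24 h with a cocktail of antiretroviral drugs (ARVs: Ritonavir, Abacavir, Atazanavir and Lamivudine) at 5 µM, or with DMSO as the control. RNA sequencing gave 3 libraries of ARVs-treated and 3 of DMSO-treated cells. The sources do not state whether the libraries of a group came from separate cell preparations, so a p-value here covers only library-to-library spread, which may be technical.

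Ubiquitin is a small protein that marks other proteins for degradation or for a change in activity. An activating enzyme loads ubiquitin, a conjugating enzyme carries it, and a ligase chooses the substrate, while deubiquitinases remove it again and the proteasome degrades proteins that carry ubiquitin chains. Many ligases are modular: F-box proteins, BTB-Kelch proteins and SOCS box proteins are the adaptors that bring substrates to cullin scaffolds, whereas most TRIM and RNF proteins carry their own RING domain. In heart and skeletal muscle the system is known for turnover of sarcomere and Z-disc proteins and for the atrophy programme, and in dividing cells for the timed destruction of cyclins by the anaphase-promoting complex.

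The libraries held 4329218 to 5271521 counts on the listed genes with ARVs and 4871069 to 5871352 with DMSO, of totals of 17347680 to 21049515 and 18281189 to 22126119 that the FPKM values imply. Values below are normalized counts, that is, the read count divided by the size factor that the authors set for each library. Every gene of the table had been called as different by the authors on these same libraries. A gene with one of these names that is not listed was either not called or not tested, and was not analysed here. RefSeq lists 479 protein coding rat genes whose symbols follow the same rule, among them 54 Psm, 58 Usp and 45 Ube2 genes. One control library, DMSO replicate 2, differed from its group: the chi-square of its counts, divided by the degrees of freedom, was 29.3 and 32.0 against the other controls, where pairs of ARVs libraries gave 4.83 to 6.43 and the remaining DMSO pair 5.54. Of 14 cardiomyocyte markers, 6 were in the table and none was at 0 in any library, with a summed level of 612253 to 656664 normalized counts with ARVs and 692096 to 751934 with DMSO. These markers went both ways, with 2 higher (Myh7 and Pln) and 4 lower (Myh6 and Nppa among them). Markers of other cells of the ventricle were present as well. Of 11 fibroblast markers, 6 were listed, 3 higher and 3 lower (158021 to 160037 with ARVs, 161652 to 166510 with DMSO). Of 9 smooth muscle and pericyte markers, 7 were listed, all 7 lower (76421 to 88283 with ARVs, 107702 to 130722 with DMSO). Among all genes tested, 60.1% were lower with ARVs and 39.9% higher.

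With ARVs, 15 of the 39 genes were higher and 24 were lower. The higher genes moved little, with log2 fold changes from 0.21 (Otud7b) to 0.69 (Otud1) and a median of 0.30. The lower genes ran from -1.80 (Kbtbd11) to -0.17 (Asb2), with a median of -0.44. All 39 passed edgeR's quasi-likelihood test at an adjusted p of 0.05, as did 100% of the 1751 genes tested, so that passing says nothing particular about these genes. The listed genes had been chosen on the same contrast, and the p-values were adjusted among them alone. They therefore carry no adjustment for genes outside the table. By direction, 38.5% of the 39 genes were higher and 61.5% lower, against 39.9% and 60.1% of all genes tested, shares that lie close together. In 37 of the 39 genes the ARVs and DMSO libraries did not overlap, against 95.9% of all genes in the table (39.2% with every ARVs library above and 56.7% with every ARVs library below the DMSO libraries), and the exceptions were Uba7 and Trim50. Falls of more than 2-fold were found for 8 of the 39 genes (20.5%), against 7.37% of all genes tested. Those 8 were Kbtbd11, Asb4, Ube2t, Uba7, Ube2c, Trim50, Fbxo44 and Asb11, and with other scalings, described next, fewer passed both limits. With TMM these were 6 of the 39 genes (15.4%), against 5.25% of all genes tested. With median-ratio factors they were 3 (7.69%; Asb4, Kbtbd11 and Ube2t), against 3.37%. Rises stayed under 2-fold in all 15 higher genes, where 2.00% of all genes tested rose past it.

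**Figure D1:**
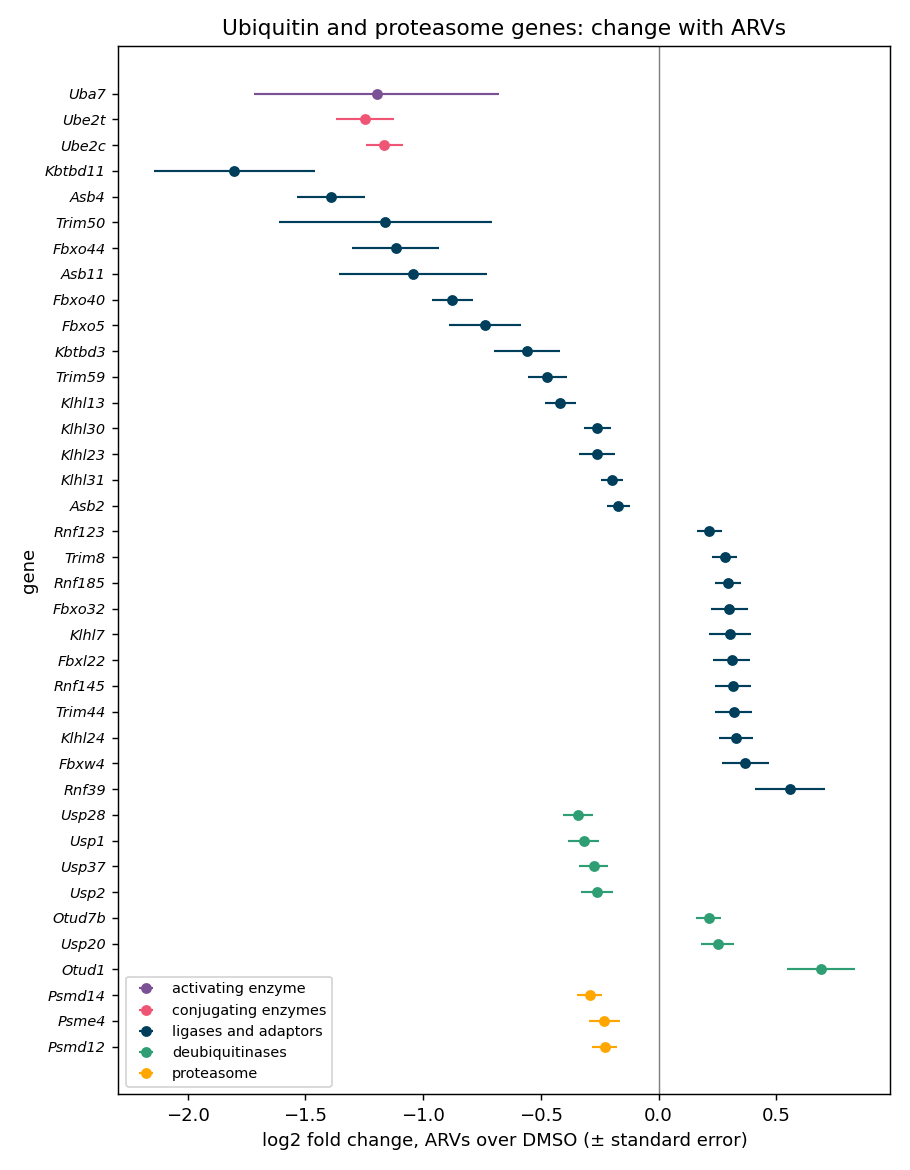
Log2 fold change of ARVs over DMSO for 38 of the 39 genes (points, with the standard error as bars), grouped by role. The 2 conjugating enzymes and the 3 proteasome genes all lie below 0, whereas ligases and deubiquitinases lie on both sides, from -1.80 for Kbtbd11 to 0.69 for Otud1.

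How many genes were lower depends on the scaling of the libraries. With TMM over the listed genes, log2 fold changes lay higher by a median of 0.096, and 15 of the genes were higher and 19 lower. With median-ratio factors they lay higher by 0.20, and 15 were higher and 12 lower. Of all genes tested, 90.3% passed with TMM (39.9% higher, 50.4% lower) and 70.5% with median-ratio factors (39.9% higher, 30.6% lower). Both of these scalings assume that most genes in the table did not change, and every gene in it had been called. The 10 lower genes that fell most all kept negative values, and Uba7 and Trim50 were the ones among them that did not pass under at least 1 of these scalings.

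**Figure D2:**
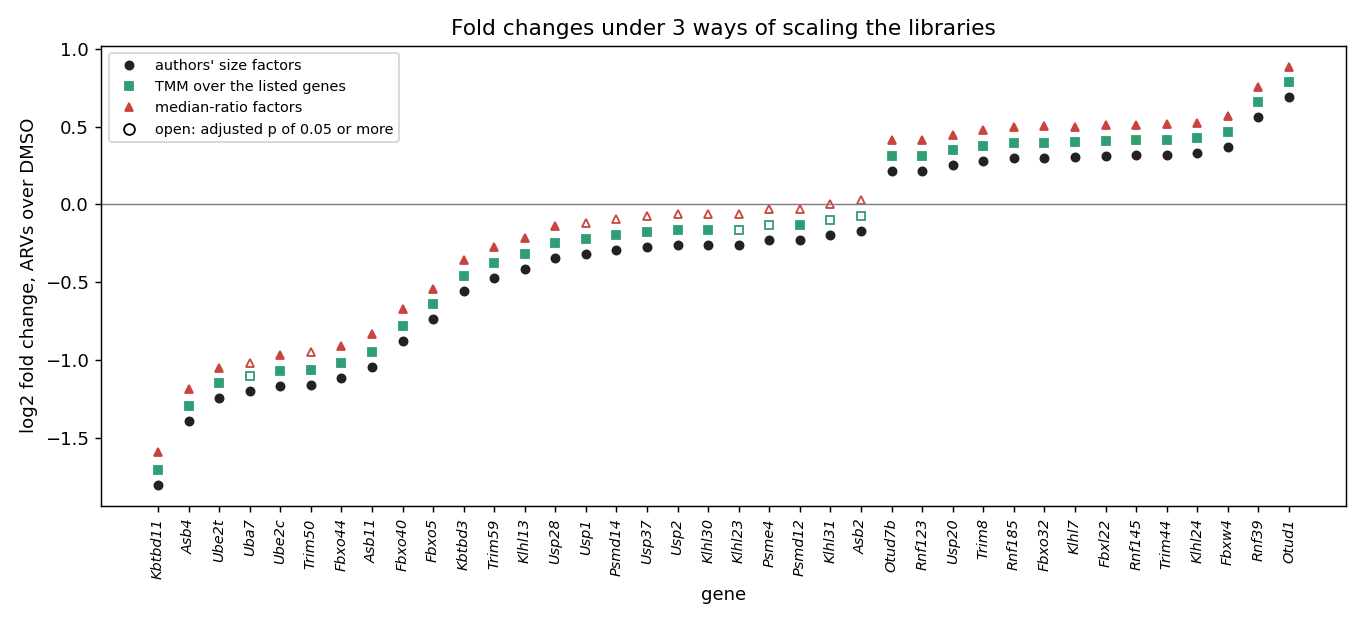
Log2 fold change of 38 of the 39 genes (ARVs over DMSO) with the authors' size factors (circles), TMM over the listed genes (squares) and median-ratio factors (triangles), where open symbols mark an adjusted p of 0.05 or more. The 14 higher genes drawn keep filled symbols under the 3 scalings, while the smaller falls, such as Asb2 and Klhl31, come to lie at about 0.

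Uba7 encodes the activating enzyme of ISG15, a ubiquitin-like protein induced by interferon, and not of ubiquitin itself. Of the 39 genes it had the largest adjusted p. It had 31.0, 53.5 and 42.7 normalized counts in ARVs replicates 1, 2 and 3, against 37.0, 177 and 79.8 in DMSO replicates 1, 2 and 3, so that DMSO replicate 1 lay within the range of the ARVs libraries. Its log2 fold change of -1.20 (standard error 0.52) had an adjusted p of 0.048 from edgeR. Without DMSO replicate 2 the log2 fold change was -0.43 and the adjusted p was 0.215, and it also missed 0.05 without DMSO replicate 3 or without any 1 of the ARVs libraries (0.0522 to 0.149 from edgeR). With TMM the adjusted p was 0.0694 and with median-ratio factors 0.102, and limma on log2 of FPKM plus 1 or 0.1 gave 0.117 and 0.118. Under other settings Uba7 passed. The adjusted p was 0.00964 without DMSO replicate 1 and 0.00588 with the replicate number as a block, both from edgeR, and 0.0173 from the DESeq2 Wald test. Isg15, the substrate of this enzyme, rose in the same cells: it had 364, 530.3 and 521 counts with ARVs, against 154, 287 and 211 with DMSO (log2 fold change 1.12, standard error 0.23, adjusted p = 0.0025 from edgeR). The table held 5 of 17 genes on a list of the interferon response, each of them higher, where 39.9% of all genes tested were higher. Cxcl10 was at 1.59, Oasl at 1.28 and Rsad2 at 1.15. Macrophage and leukocyte markers went both ways: the table held 4 of 12, of which 3 were higher (Adgre1 at 1.22, Cd68 at 0.49 and Lyz2 at 0.34) and Cd74 was lower (-1.68), with none at 0 in any library. Their summed level was 1262 to 1360 normalized counts with ARVs and 952 to 1044 with DMSO, and their part in the interferon genes was not tested.

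Both conjugating enzymes in the table serve dividing cells, and each fell by more than 2-fold, as did 7.37% of all genes tested. Only 2 of the 45 Ube2 symbols in RefSeq were in the table, so these values do not describe the conjugating enzymes as a set. Ube2c, on chromosome 3 (161236898 to 161241159 in the coordinates of release 97), is the enzyme that works with the anaphase-promoting complex. It had 337, 328 and 352 counts in the ARVs libraries, against 773, 806 and 697 in the DMSO libraries. The groups were far apart and the libraries within each were close (log2 fold change -1.17, standard error 0.08, adjusted p = 2.6e-05 from edgeR), and this was the smallest adjusted p of the 39 genes. Ube2t, on chromosome 13 (51795867 to 51801163), is the conjugating enzyme of the Fanconi anaemia DNA repair pathway. It had 136, 119.7 and 112 counts with ARVs, against 292, 312 and 272 with DMSO, with no overlap between the groups (log2 fold change -1.25, standard error 0.12). In FPKM, Ube2t stood at 10.3 ± 1.03 with ARVs and 24.1 ± 1.85 with DMSO, and Ube2c at 9.58 ± 0.246 and 21.1 ± 1.67 (SD, n = 3 each).

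Genes around the anaphase-promoting complex were lower together with its conjugating enzyme. Fbxo5 encodes Emi1, an F-box protein that inhibits this complex until mitosis, and it had 181, 168 and 181 counts with ARVs, against 279, 359 and 244 with DMSO. DMSO replicate 2 was the highest, and no library of one group reached the other (log2 fold change -0.74, standard error 0.15, adjusted p = 0.0028 from edgeR). The table held 11 of 26 other genes of the complex and its regulators, and 10 of the 11 were lower. Among all genes tested, 60.1% were lower. Cdc20, which activates the complex, had 733, 793 and 698 counts with ARVs, against 1327, 1415 and 1314 with DMSO (log2 fold change -0.87, standard error 0.07). The cyclin Ccnb1, one of the substrates of the complex, fell further (-1.07, standard error 0.08). The spindle checkpoint gene Bub1b fell by about as much as Cdc20 (-0.91, standard error 0.07). The higher gene was Anapc2, the cullin-like subunit of the complex, at 0.28 (standard error 0.06). It was the only subunit of the complex among the 11. The 10 lower genes encode regulators and substrates, so they do not describe the complex itself. Markers of cycling cells moved with these genes: the table held 13 of 14, each of them lower, and their summed level was 9428 to 10276 normalized counts with ARVs and 18526 to 18925 with DMSO, with no marker at 0 in any library. Ccnb1, Ccna2 and Plk1 are on both lists. Their part in the fall of Ube2c, Ube2t and Fbxo5 was not tested, and in bulk RNA fewer cells of a type and less RNA per cell cannot be told apart.

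The promoters of Ube2t and Fbxo5 are shown because both genes fell with ARVs and both windows hold CCAAT boxes, which are common in promoters of genes of the cell cycle. The windows are from RefSeq (build GRCr8), run from 250 bases before to 50 bases after the start of the gene and are written 5′ to 3′ along the gene. Capitals mark CCAAT on either strand (ATTGG where it lies on the other strand) and TTTGAA, the letters of the cell cycle genes homology region (TTCAAA on the other strand). The Ube2t window is chr13:48954916-48955215 on the plus strand, and the Fbxo5 window is chr1:44607732-44608031 on the minus strand. A promoter of a gene that rose, Klhl24 (chr11:94382001-94382300, minus strand), is set beside them.
Ube2t: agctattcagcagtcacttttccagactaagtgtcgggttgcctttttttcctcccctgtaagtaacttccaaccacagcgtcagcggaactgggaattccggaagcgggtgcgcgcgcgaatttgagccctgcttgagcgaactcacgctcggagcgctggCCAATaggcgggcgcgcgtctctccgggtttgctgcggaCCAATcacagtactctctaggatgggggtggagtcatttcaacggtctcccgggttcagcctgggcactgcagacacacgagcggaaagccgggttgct
Fbxo5: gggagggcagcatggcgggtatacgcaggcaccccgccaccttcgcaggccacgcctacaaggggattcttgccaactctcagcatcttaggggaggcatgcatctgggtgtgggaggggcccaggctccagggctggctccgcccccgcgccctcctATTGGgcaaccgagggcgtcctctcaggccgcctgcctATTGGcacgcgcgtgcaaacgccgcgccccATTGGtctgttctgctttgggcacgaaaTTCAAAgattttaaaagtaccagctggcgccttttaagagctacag
Klhl24: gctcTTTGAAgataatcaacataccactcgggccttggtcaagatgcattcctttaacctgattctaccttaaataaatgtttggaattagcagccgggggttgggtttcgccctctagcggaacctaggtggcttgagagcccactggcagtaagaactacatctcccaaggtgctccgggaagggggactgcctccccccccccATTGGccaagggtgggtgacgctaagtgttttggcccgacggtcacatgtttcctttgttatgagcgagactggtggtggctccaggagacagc
In Ube2t the boxes start 88 and 49 bases before the start of the gene, and in Fbxo5 they lie 92, 54 and 24 bases before it, with the TTTGAA letters 4 bases after it. Klhl24 has 1 CCAAT at 44 bases and 1 TTTGAA at 246 bases before the start. The windows of Usp1, Usp37 and Klhl13, which also fell, hold neither CCAAT nor TTTGAA. Windows were found for 29 of the 39 genes, and Ube2c was not among them. CCAAT was present in 31.0% of these 29 and in 37.7% of the 27457 rat promoters of the same length, and TTTGAA in 24.1% and 18.1%. The antioxidant response element letters TGACNNNGC were in 24.1% of the 29 windows and 12.2% of all, and the FOXO letters GTAAACA in 6.90% and 3.76%. A match of letters is not evidence of a bound site.

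Among the 6 F-box genes, 3 fell and 3 rose, and the falls were larger. Fbxo40 is a muscle F-box protein known in mouse for directing the insulin receptor substrate IRS1 to degradation. It had 993, 882 and 967 counts with ARVs, against 1821, 1531 and 1859 with DMSO (log2 fold change -0.88, standard error 0.09, adjusted p = 0.00011 from edgeR). Fbxo44 had 124, 140.5 and 138 counts with ARVs and 322, 213 and 338 with DMSO, where DMSO replicate 2 was the lowest of its group and still above all ARVs libraries (log2 fold change -1.12, standard error 0.18). Fbxo32 encodes atrogin-1, the F-box ligase adaptor of the muscle atrophy programme, and rose by a small amount. It had 1220.1, 1289.9 and 1351 counts with ARVs, against 1044, 946 and 1145 with DMSO (log2 fold change 0.30, standard error 0.08, adjusted p = 0.0062 from edgeR). Fbxl22, a cardiac F-box protein found at the Z-disc, rose by 0.31 on the log2 scale and Fbxw4 by 0.37 (standard errors 0.08 and 0.10). Of 19 other genes on a list of muscle atrophy and its FOXO factors, the table held 7, of which 6 rose. The share of all genes tested that were higher was 39.9%. Gadd45a, a stress-induced gene, rose by 0.50 (standard error 0.09), the lysosomal protease gene Ctsl by 0.20 (standard error 0.04) and the autophagy gene Map1lc3b by 0.19 (standard error 0.04), and the growth factor gene Igf1 was the lower one (-0.60, standard error 0.09).

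**Figure D3:**
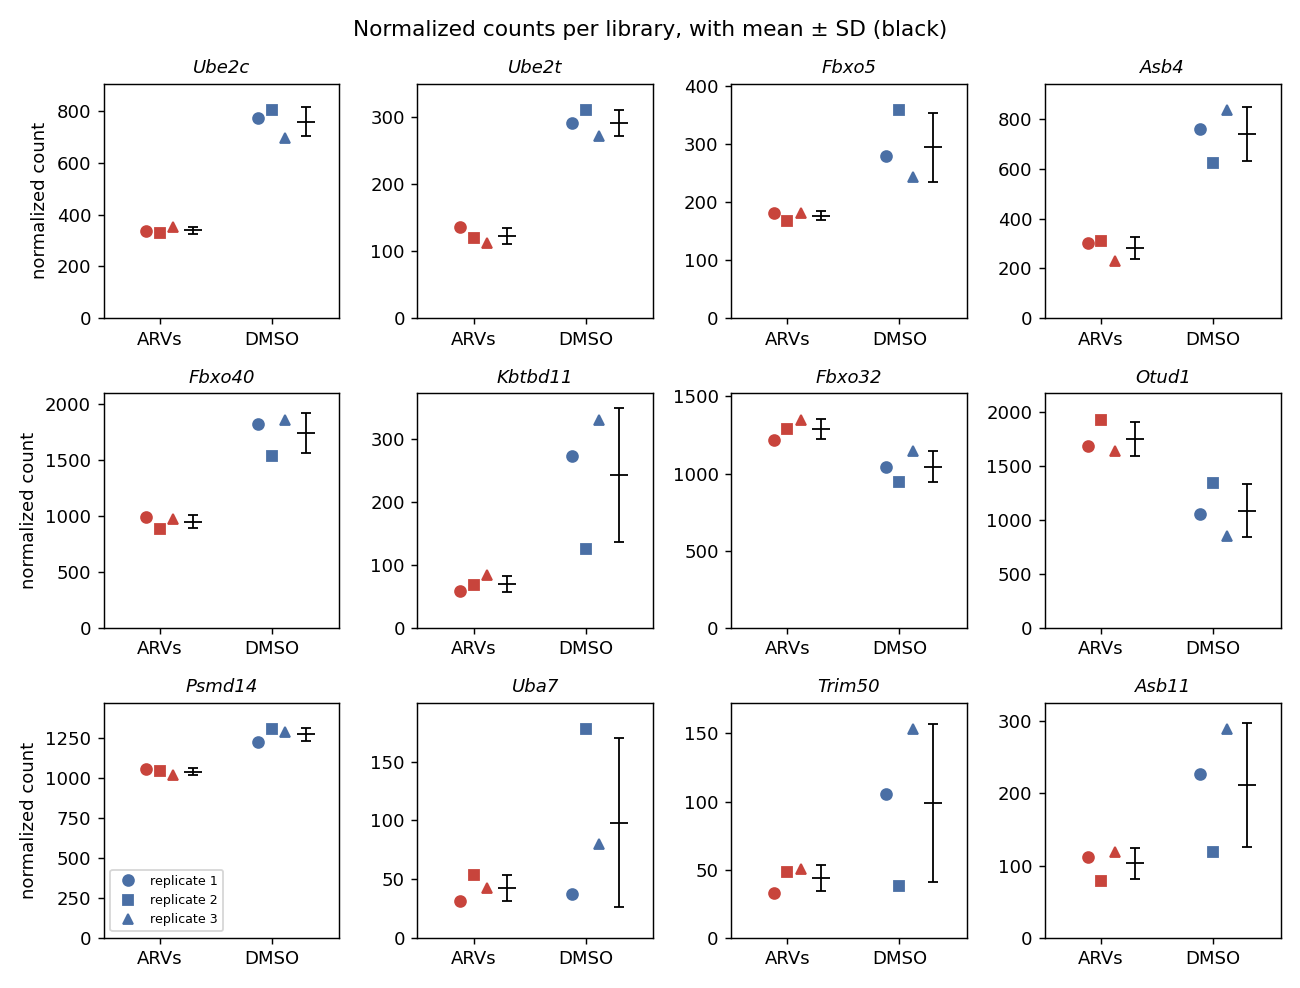
Normalized counts of 12 of the genes in each ARVs and DMSO library (red and blue symbols, 1 shape per replicate number), with the mean and SD of each group in black; the vertical axes start at 0. Ube2c, Ube2t, Asb4 and Fbxo40 show a wide gap between the groups, whereas Uba7 and Trim50 overlap and Asb11 nearly does.

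The BTB-Kelch genes, adaptors of cullin-3 ligases, were lower in 6 of 8 cases, where 60.1% of all genes tested were lower. With TMM 4 of the 8 were lower and with median-ratio factors 3. Kbtbd11 had the largest fall of the 39 genes, with 57.8, 68.0 and 83.2 counts in the ARVs libraries, against 273, 125 and 331 in the DMSO libraries. The DMSO libraries were widely spread, and replicate 2 lay nearest to the ARVs libraries (log2 fold change -1.80, standard error 0.34, adjusted p = 0.002 from edgeR). Kbtbd3 fell with a log2 fold change of -0.56, and Klhl13, which takes part in cell division through the mitotic kinase Aurora B, with one of -0.42 (standard errors 0.14 and 0.06). Smaller falls were found for Klhl30 (-0.26), Klhl23 (-0.26) and the muscle gene Klhl31 (-0.20), with standard errors of 0.06, 0.08 and 0.05. Klhl23 and Klhl31 did not pass with TMM (adjusted p = 0.064 and 0.0635 from edgeR), and under median-ratio scaling Klhl30, Klhl23 and Klhl31 all missed the threshold (0.377, 0.54 and 0.984). The rising pair was Klhl24, known in human for a cardiomyopathy and for turnover of intermediate filament proteins, and Klhl7. Klhl24 had 1957, 1973 and 1790.5 counts with ARVs, against 1539.7, 1639.9 and 1376 with DMSO (log2 fold change 0.33, standard error 0.07). Klhl7 had 1787, 1789 and 1758 with ARVs and 1321, 1671 and 1332 with DMSO, so that DMSO replicate 2 stood near the ARVs libraries and the other DMSO libraries well below them (log2 fold change 0.30, standard error 0.09).

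All 3 Asb genes, SOCS box adaptors of cullin-5 ligases, were lower, where 60.1% of all genes tested were lower. Asb4, known in mouse for expression in the developing vasculature, had 303, 311 and 229 counts with ARVs, against 759.9, 623 and 839 with DMSO. A wide gap separated the groups (log2 fold change -1.39, standard error 0.14, adjusted p = 0.00013 from edgeR). Asb11 had 113, 78.0 and 118 counts with ARVs and 227, 119 and 289 with DMSO, where DMSO replicate 2 was barely above ARVs replicate 3 (log2 fold change -1.04, standard error 0.31). Asb2, a muscle adaptor that directs filamins to degradation, had the smallest change of the 24 lower genes. It had 3265, 3039 and 3186 counts with ARVs and 3644, 3439 and 3602 with DMSO (log2 fold change -0.17, standard error 0.05, adjusted p = 0.0083 from edgeR), and with TMM it did not pass (adjusted p = 0.141). Smooth muscle and pericyte markers were lower in the same libraries, as given above, and their part in the falls of the Asb genes was not tested.

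While 39.9% of all genes tested were higher, all 4 Rnf genes in the table, of 87 Rnf symbols in RefSeq, rose. The rises of the Rnf genes were 0.22 to 0.56 on the log2 scale. Rnf39 had the largest rise of these, with 211, 245 and 252 counts with ARVs, against 158, 186 and 135 with DMSO (log2 fold change 0.56, standard error 0.15). Rnf185 and Rnf145 encode ligases of the endoplasmic reticulum membrane. Rnf185, which acts in the degradation of misfolded proteins of this compartment, had 963, 936 and 938 counts with ARVs and 764, 791 and 754 with DMSO, with little spread in either group (log2 fold change 0.30, standard error 0.05). Rnf145, which takes part in sterol-controlled degradation of HMG-CoA reductase, rose by 0.32 (standard error 0.08). Rnf123, the catalytic subunit of the KPC ligase of the cell cycle inhibitor p27, rose by 0.22 (standard error 0.06).

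The 4 Trim genes were split. Trim8 rose by 0.28 on the log2 scale (standard error 0.05), and Trim44, which lacks a RING domain, by 0.32 (standard error 0.08). Trim59 fell, with 378, 433 and 386 counts with ARVs and 569, 574 and 518 with DMSO (log2 fold change -0.47, standard error 0.08). Trim50 had 33.0, 48.0 and 50.6 counts with ARVs, against 106, 37.6 and 153 with DMSO. DMSO replicate 2 lay within the range of the ARVs libraries, and the difference (log2 fold change -1.16, standard error 0.45, adjusted p = 0.033 from edgeR) did not pass without any 1 of the ARVs libraries or without DMSO replicate 1 or 3 (adjusted p = 0.0631 to 0.137). Without DMSO replicate 2 the log2 fold change of Trim50 was -1.55 and the adjusted p was 3e-05 from edgeR.

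**Figure D4:**
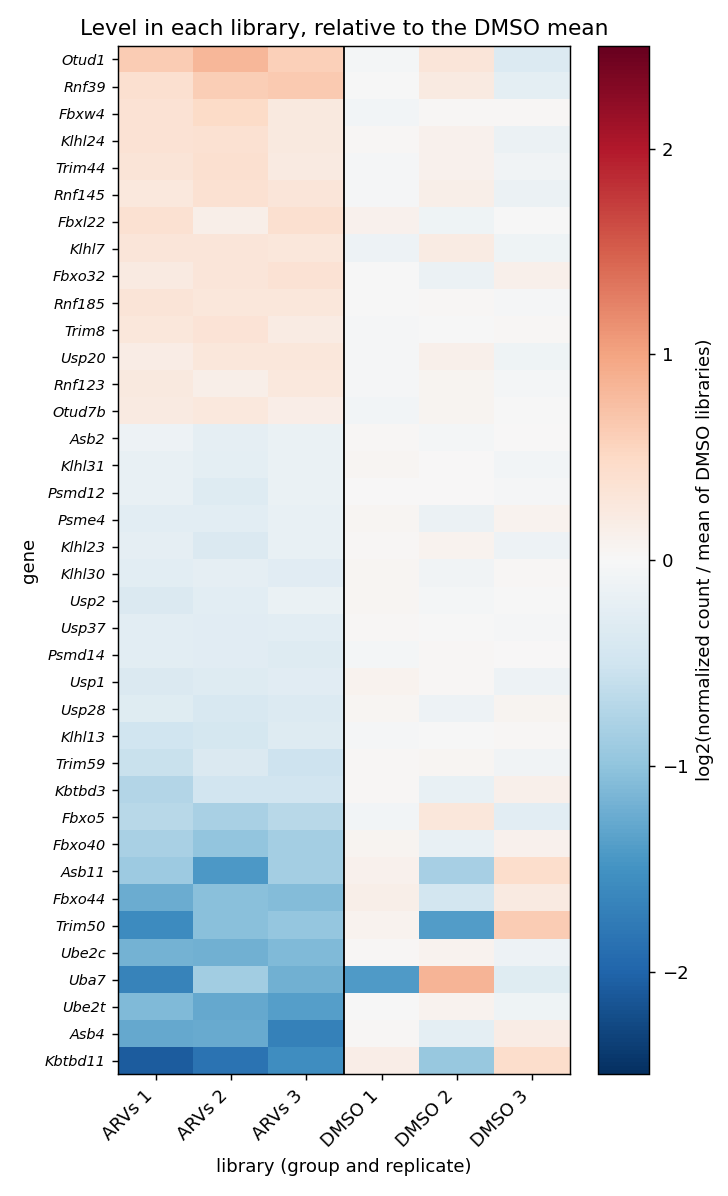
Normalized count of 38 of the 39 genes in each library relative to the mean of the DMSO libraries, as log2 (red higher, blue lower); genes run down the page by log2 fold change. The 14 higher genes drawn are pale red across the ARVs libraries, the 24 lower genes are blue, and DMSO replicate 2 departs from the other DMSO libraries in Trim50, Asb11, Kbtbd11, Uba7 and Otud1.

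Deubiquitinases were split by family: 4 of 5 Usp genes fell, by log2 fold changes from -0.34 to -0.26, and both Otud genes rose. The shares over all genes tested were 60.1% lower and 39.9% higher. Otud1 had the largest rise of the 39 genes. It had 1685, 1934 and 1639 counts with ARVs, against 1056, 1345 and 856 with DMSO (log2 fold change 0.69, standard error 0.15, adjusted p = 0.003 from edgeR). DMSO replicate 2 was again the library nearest to the ARVs libraries, and without it the log2 fold change was 0.87. Otud7b, a deubiquitinase with specificity for one kind of ubiquitin chain, had a smaller rise (0.21, standard error 0.05). Usp20, which takes part in recycling of the beta-2 adrenergic receptor, was the Usp gene that rose (log2 fold change 0.25, standard error 0.07).

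The Usp genes that fell include enzymes of DNA repair and of the cell cycle. Usp28, which stabilizes the MYC protein, had 2474, 2318 and 2419 counts with ARVs, against 3155, 2788 and 3198 with DMSO (log2 fold change -0.34, standard error 0.06). Usp1, which removes ubiquitin from FANCD2, the protein that Ube2t helps to modify, had 948, 972 and 995 counts with ARVs and 1279, 1239.6 and 1112 with DMSO (log2 fold change -0.32, standard error 0.07). Usp37, which counteracts the anaphase-promoting complex on cyclin A, had 499, 489 and 495 with ARVs and 614, 593 and 586 with DMSO. Its libraries agreed closely within each group (log2 fold change -0.28, standard error 0.06). Usp2, known for its daily rhythm in many tissues, fell by 0.26 on the log2 scale (standard error 0.07). Of these, Usp1, Usp2 and Usp37 missed the threshold under median-ratio scaling, where edgeR gave adjusted p of 0.194, 0.469 and 0.367.

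The 3 proteasome genes in the table were all lower by a similar small amount, where 60.1% of all genes tested were lower. Psmd14 encodes the subunit of the regulatory particle that removes ubiquitin chains from substrates, and had 1056, 1042 and 1014 counts with ARVs, against 1224, 1302 and 1286 with DMSO (log2 fold change -0.29, standard error 0.05, adjusted p = 0.0018 from edgeR). Psmd12, another subunit of the lid of the regulatory particle, had 1861, 1694 and 1884 with ARVs and 2127, 2151 and 2089 with DMSO (log2 fold change -0.23, standard error 0.05). Psme4 encodes PA200, an activator that binds the proteasome core without ubiquitin, and had 5857, 5878 and 6205 with ARVs and 7256, 6362 and 7417 with DMSO (log2 fold change -0.23, standard error 0.06). No group overlapped the other in these 3 genes. Psme4 did not pass with TMM (adjusted p = 0.0654), and with median-ratio factors none of the 3 passed (adjusted p = 0.251 to 0.688 from edgeR). Only 3 of the 54 Psm symbols in RefSeq were in the table, so these values do not describe the proteasome genes as a set. Nfe2l1, which encodes a transcription factor of proteasome genes, was higher with ARVs, at 5162, 4985 and 5110.4 counts, against 4425, 4624 and 4480.4 with DMSO (log2 fold change 0.17, standard error 0.04, adjusted p = 0.0049 from edgeR).

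Between the classes, the conjugating enzymes had the lowest median log2 fold change, -1.21 over 2 genes, compared with -0.20 over 25 ligases and adaptors, -0.26 over 7 deubiquitinases and -0.23 over 3 proteasome genes, where the median of all genes tested was -0.25. The median of the 39 genes was -0.26. Within the ligases, the cullin adaptors (Fbx, Klhl, Kbtbd and Asb) were lower in 12 of 17 genes with a median of -0.26. That count depends on the scaling: Asb2, Klhl23 and Klhl31 did not pass with TMM or median-ratio factors, nor Klhl30 with median-ratio factors. The Rnf and Trim ligases were higher in 6 of 8 with a median of 0.29. Over all genes tested, 60.1% were lower and 39.9% higher. These are descriptions of the listed genes, and no difference between classes was tested.

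In level per gene length the genes spanned a wide range. High levels with ARVs were those of Otud1 (66.3 ± 6.81 FPKM with ARVs, 40.3 ± 9.53 with DMSO), Asb2 (61.5 ± 1.71 and 67.9 ± 1.23), Klhl24 (54.8 ± 3.41 and 42.8 ± 4.04) and Usp20 (54.3 ± 2.59 and 44.8 ± 4.10; SD, n = 3 each). The lowest were Uba7 (0.592 ± 0.162 with ARVs, 1.35 ± 1.01 with DMSO), Kbtbd11 (0.878 ± 0.157 and 3.00 ± 1.29) and Trim50 (1.10 ± 0.239 and 2.42 ± 1.42). The order of these abundant genes is not firm throughout. Otud1 and Asb2 differ by an amount near their spread with ARVs, and so do Klhl24 and Usp20. Higher genes had a median mean level of 24.8 FPKM and lower genes one of 15.0 FPKM, close to 25.3 and 15.7 FPKM for all higher and lower genes of the table. For 12 of the 39 genes the FPKM rests on a length other than the gene length in the table. Usp20 is the widest case, with an implied length of 1452 bases beside 5649 in the table, so its FPKM is less certain than its count.

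**Figure D5:**
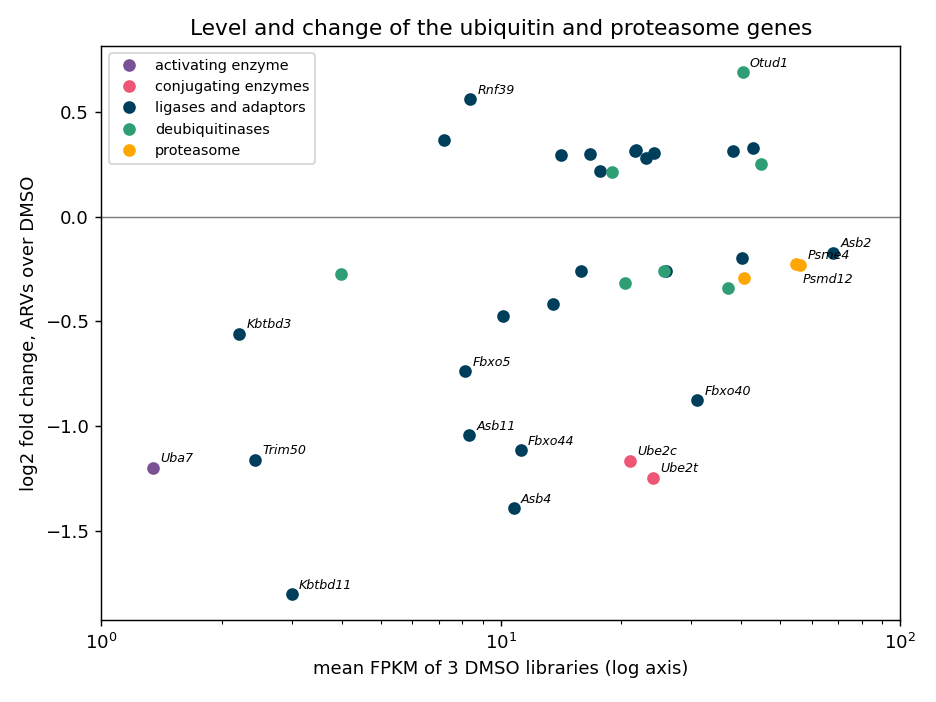
Mean FPKM of the DMSO libraries (log axis) against the log2 fold change of ARVs over DMSO for 38 of the 39 genes, coloured by role. The 8 genes with falls of more than 2-fold all lie to the left of Fbxo40, and the genes at the right, Psmd12, Psme4 and Asb2, changed by -0.23, -0.23 and -0.17.

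DMSO replicate 2 departed from the other DMSO libraries in these genes as in others. Its normalized count lay below 0.8 or above 1.25 times the mean of DMSO replicates 1 and 3 in 10 of the 39 genes (25.6%), against 17.5% of all genes tested. It was low in Trim50 (0.29 times that mean), Kbtbd11 (0.42), Asb11 (0.46) and Fbxo44 (0.65), and high in Uba7 (3.04), Otud1 (1.41) and Fbxo5 (1.37). In 23 of the 39 genes (59.0%) it was the DMSO library nearest to the ARVs mean, against 54.9% of all genes tested. Hypoxia-inducible genes moved with this library: 6 of 14 were in the table, with a summed level of 71462, 46176 and 73690 in DMSO replicates 1, 2 and 3. In ARVs replicates 1, 2 and 3 the sum was 41665, 38829 and 42771, so that replicate 2 was the lowest of each group. The part of the hypoxia-inducible genes in the differences was not tested. Without DMSO replicate 2, 15 of the 39 genes were higher and 23 were lower, against 40.0% and 59.9% of all genes tested, and the log2 fold changes of Kbtbd11, Fbxo44 and Asb11 were -2.12, -1.30 and -1.33.

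Elsewhere in the ubiquitin system, the table held few genes. It held 10 of 77 other ligases on a list of such genes, and 5 of these were higher and 5 lower. Those with the smallest adjusted p were all lower: Bard1, the partner of BRCA1 (-0.66, standard error 0.12), Uhrf1, which maintains DNA methylation (-0.37, standard error 0.07), Dtl, a replication-coupled adaptor (-0.70, standard error 0.15), and Hectd2 (-0.26, standard error 0.06). Of 21 other deubiquitinases only Uchl1 was listed, and it was higher (0.54, standard error 0.10). Of 24 genes of proteasome assembly, control and shuttling, 2 were listed and both were higher, Nfe2l1 and the ubiquitin receptor gene Sqstm1 (0.30, standard error 0.05). Of 16 genes of neddylation and the COP9 signalosome, which control cullin ligases, only Cand2 was listed (-0.37, standard error 0.07). Across all of these lists, the interferon and atrophy lists included, the table held 37 of 211 genes, of which 20 were higher and 17 lower. The shares over all genes tested were 39.9% higher and 60.1% lower.

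By position, 7 of the 39 genes lie on chromosome 8 (17.9%), which holds 6.38% of the listed genes. It is given because it held the largest share of the 39 genes. Where all genes with such names lie in the genome was not examined. The 7 genes on chromosome 8 are Uba7, Usp28, Usp2, Kbtbd3, Klhl31, Rnf123 and Fbxl22, and they moved in both directions. Uba7 and Rnf123 are neighbours among these genes there, 64.9 kb apart, and had log2 fold changes of -1.20 and 0.22. On chromosome 1, Fbxw4 and Trim8 lie 835 kb apart, and both rose (0.37 and 0.28).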

How the data were processed

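RNA of NRVCs gave 3 ARVs and 3 DMSO libraries. The authors aligned reads with HISAT2 and used StringTie 1.3.3b (processing notes, release 97 annotation); the program that counted reads is not given in the sources used here. The table deposited by the authors holds raw read counts, counts normalized by size factor (a signal) and FPKM for 1756 genes that they had called on these libraries. Its fold changes and p-values are theirs and were not used.

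Counts were fitted with edgeR 4.0.16 (quasi-likelihood test, R 4.3.3, filterByExpr, Benjamini-Hochberg over 1751 genes, adjusted p under 0.05), scaled by the authors' size factors, since TMM over a table of called genes cannot rest on unchanged genes. Size factors were the raw over the normalized count. Fold changes are ARVs over DMSO. Alternatives were TMM, median-ratio factors, DESeq2 1.42.0, limma 3.58.1 on log2 of FPKM plus 1 or 0.1, other filters, a replicate block and leaving out each library. Promoter windows came from RefSeq (GRCr8).

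The genes and lists were chosen with earlier results of these data known. All but 1 of the 39 genes are named with direction and size (the other is counted but not reported here), with values per library for at most 25 (largest change, level or spread in each class). Of each other list at most 4 genes are given with values, those with the smallest adjusted p. Anapc2 was added after its value was seen. Because the table was selected on the contrast tested, p-values are not independent evidence.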

Additional observations from a re-analysis of the deposited data

How the results depend on the processing

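The 15 higher genes stayed higher and past an adjusted p of 0.05 under every scaling, filter and tool tried, whereas the count of lower genes moved. Under median-ratio scaling, 12 of the 39 genes were lower, as were 536 of all genes tested (1052 with the authors' factors), 11 of 37 other ubiquitin genes (17), 9 ligases and adaptors (14), 1 deubiquitinase (4), 0 proteasome genes (3) and 0 activating enzymes (1), and the log2 fold changes of Asb2 and Klhl31 turned to 0.0285 and 0.0012. Median-ratio factors and TMM set the level from genes that had all been called, and shift every gene by about the same amount. The lower count of activating enzymes, which is Uba7 alone, was also 0 with TMM, with limma on FPKM plus 1 or plus 0.1, and at an adjusted p under 0.01, and ranged from 0 to 1 when each library was left out. Leaving out each library gave 22 to 23 lower genes. DESeq2, no filter and a minimum of 10 counts gave 15 higher and 24 lower, and limma on FPKM 15 and 22.

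Replicate numbers are shared between the groups. Same-numbered libraries correlated at -0.0065, 0.243 and 0.0665 in their deviations for numbers 1, 2 and 3, and only number 2 correlated best with its own number. The sources do not state whether same-numbered libraries share an origin, and this was not tested. With the replicate block, 15 genes were higher and 24 lower.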
